A study of Mus musculus with 9 samples.

Results

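Map1a, Map1b, Map2 and tau mRNAs encode the main structural microtubule-associated proteins of neurons, and the tags of 2 RNA-binding proteins on these 4 mRNAs are described here. The genes were taken by symbol (Mtap1a, Mtap1b, Mtap2 and Mapt in the authors' deposited table), 4 of 29261 genes listed, of which 8924 had an FMRP tag. FMRP, the protein lost in fragile X syndrome, and the neuronal Hu proteins were mapped by HITS-CLIP, in which ultraviolet light fixes a protein to RNA and the short RNA pieces that come down with it are sequenced as tags. Every library came from polyribosomes of cortex and cerebellum, dissected free of white matter, of wild-type male FVB mice, with littermates pooled. Material from Fmr1-null littermates, which the study used in parallel, was not analysed here.

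FMRP was precipitated from mice at P14, P15 and P25 by mixed monoclonal antibodies (7G1-1 and 2F5). A polyclonal antibody (ab17722) was used at P14 and P25. These 5 libraries were dissociated in 1% SDS (Protocol 1) and read on 454. The polyclonal antibody was also used on lysates at P11 and P13, dissociated in 2% SDS (Protocol 2) and read on Illumina. Hu proteins were precipitated with a human antiserum from the other portions of those P11 and P13 lysates, with Protocol 2 and Illumina.

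Microtubule-associated proteins bind along the microtubule lattice and set its stability and spacing. MAP1A and MAP1B are related long proteins that are cut into heavy and light chains, and MAP1B is the more prominent of the pair in growing axons. MAP2 is known for dendrites and tau for axons. FMRP is known to bind mRNA on brain polyribosomes, mainly over coding sequence, and Map1b is among its long-studied mRNAs. Hu proteins bind U-rich stretches, mostly in 3′ untranslated regions.

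A library held 7439 to 12153 genomic tags on 454. On Illumina the FMRP libraries held 43593 and 68178, and the Hu libraries 59118 and 98832. The limit that a count of 0 allows, 3 tags, is then 247 to 403 CPM on 454 and 30.4 to 68.8 CPM on Illumina, where CPM scales tags to the total of the library. Of 8 neuron markers all 8 had genomic tags, with 66 and 244 tags for FMRP on Illumina, against 140 and 546 for Hu. The 7 oligodendrocyte markers all had tags as well, 13 and 139 for FMRP on Illumina, against 175 and 928 for Hu, although white matter was removed. On 454 they had 5 to 13 tags a library. Astrocyte markers (6 of 7 with tags, Gja1 at 0) summed to 44 and 53 tags for FMRP on Illumina, against 7 and 18 for Hu. In the edgeR test of FMRP over Hu, 31.8% of all genes tested were higher and 25.2% lower. Of 4 neuron markers tested 0 were higher and 1 lower (Snap25), and the 1 astrocyte marker tested, Slc1a2, was higher. Slc1a2 had 21 and 30 FMRP tags against 1 and 7 Hu tags. It passed the filter on low counts through its FMRP libraries, where it is high, so its call is not counted. Snap25, with 3 FMRP tags at P11, would not have passed through its FMRP libraries alone. Microglia markers (2 of 6 with tags, with Aif1, Itgam, P2ry12 and C1qa at 0) had 0 to 2 tags a library, and endothelial markers (3 of 6 with tags, with Cldn5, Pecam1 and Slco1a4 at 0) had 0 to 5. The part of these cell types in the results on the 4 genes was not tested, and fewer cells of a type cannot be told apart from less RNA per cell.

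The 4 genes differ in how much of their transcript is coding, which matters for reading where tags fall. Map1a lies on the plus strand at chr2:121115336-121136568 (mm9) with a transcript of 11905 nt, of which 9045 nt (76.0%) are coding. Map1b, on the minus strand of chromosome 13, has no mm9 bounds in the table. All but 5 of its 1132 tags in the 9 libraries lay in a stretch of 94998 nt at chr13:100191495-100286492, and the tags counted between its neighbours differed from the authors' counts by 0 to 3 in each FMRP library. Its transcript is 13070 nt long with 7418 nt (56.8%) coding. Map2 lies on the plus strand at chr1:66221903-66489157, with a transcript of 12664 nt and 5642 nt (44.6%) coding. Tau, at chr11:104092750-104193407 on the plus strand, has the shortest of the 4 transcripts, 5777 nt, with 1471 nt (25.5%) coding.

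The first question was how many FMRP tags each mRNA carried. In the authors' counts Map1a had 30, 42 and 44 tags in the monoclonal libraries at P14, P15 and P25, 31 and 46 in the polyclonal 454 libraries at P25 and P14, and 141 and 242 in the Illumina libraries at P11 and P13. Map1b had 22, 26 and 27 tags with the monoclonal antibodies, against 17 at P25 and 30 at P14 with the polyclonal antibody on 454. In the Illumina libraries Map1b had 352 tags at P11 and 323 at P13, more than any of the other 3 genes there. Map2 had 1, 10 and 6 tags in the monoclonal libraries at P14, P15 and P25, 15 and 5 in the polyclonal 454 libraries at P25 and P14, and 88 and 124 on Illumina. Tau was close to the limit of detection, with 0, 0 and 1 tags by the monoclonal antibodies, 3 and 1 by the polyclonal antibody on 454 at P25 and P14, and 7 and 2 on Illumina.

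Scaled to transcript length and to the library's total in the gene table, Map1a was the steadiest of the 4. It averaged 487 ± 50.3 CPM per kb (SD, n = 7 FMRP libraries), between 442 and 562. Map1b averaged 438 ± 296 (SD, n = 7), between 222 and 1056, and Map2 averaged 134 ± 98.5 (SD, n = 7), between 17.6 and 273. Tau averaged 27.1 ± 31.8 (SD, n = 7), between 0 and 88.5. Among 19079 genes with a length, these levels per kb put Map1a at rank 10, Map1b at rank 13, Map2 at rank 204 and tau at rank 2008. Map1a was above Map1b in 5 of 7 libraries, those of 454 (442 to 562, against 222 to 375). It was below Map1b in both Illumina libraries (465 and 467 at P11 and P13, against 1056 and 567). The ranges of these neighbours did not overlap on either platform, but their order reversed between platforms. Platform changes together with dissociation and age here, so these cannot be told apart. Map1b was above Map2 in 7 of 7 libraries, and Map2 above tau in 7 of 7 by the authors' counts. By genomic tags Map2 was below tau in the monoclonal library at P14, where they had 1 tag each.

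**Figure D1:**
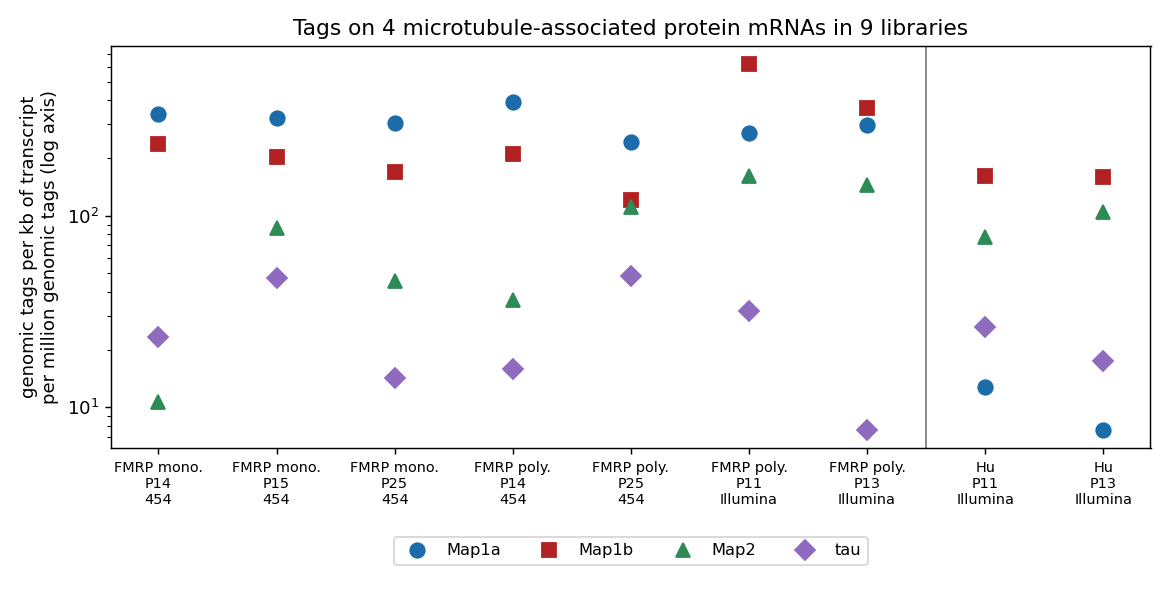
Genomic tags as CPM per kb of transcript (log axis) for the 4 mRNAs in each library, with the 7 FMRP libraries left of the line and the 2 Hu libraries right of it. Map1a lies between 243 and 392 CPM per kb in the FMRP libraries, against 12.8 and 7.65 in the Hu libraries, while tau lies below 50 everywhere.

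The authors' deposited table also gives an exon array intensity per gene, 492 for Map1a, 3421 for Map1b, 465 for Map2 and 325 for tau. Probes differ between genes, so these intensities were not ranked against each other or against the tag levels.

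FMRP tags were then set against Hu tags from the same 2 lysates, using genomic tags in the 4 Illumina libraries. Map1a had mostly FMRP tags, Map1b and Map2 had many tags of both proteins, and tau had few of either. Map1a had 141 and 242 FMRP tags at P11 and P13, against 9 and 9 Hu tags. Its FMRP libraries stood far above its Hu libraries. Scaled to the genomic tags of each library, the ratio of FMRP to Hu was 21.2 (95% exact counting interval 10.9 to 47.4) in the P11 lysate and 38.98 (20.2 to 86.3) in the P13 lysate. Map1b had 352 and 324 FMRP tags, against 124 and 206 Hu tags, with ratios of 3.85 (3.13 to 4.76) at P11 and 2.28 (1.91 to 2.73) at P13. Map2 had 89 and 125 FMRP tags, against 58 and 131 Hu tags, with ratios of 2.08 (1.48 to 2.95) and 1.38 (1.07 to 1.78). Tau had 8 and 3 FMRP tags, against 9 and 10 Hu tags, and its ratios of 1.21 (0.405 to 3.52) and 0.435 (0.0769 to 1.69) fell on either side of 1.

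In the edgeR quasi-likelihood fit over 953 genes, 303 genes (31.8%) were higher with FMRP and 240 (25.2%) lower at an adjusted p under 0.05. The split was 217 higher and 76 lower with DESeq2, 235 and 72 with no filter on low counts, and 215 and 76 without the Hu library at P13. Of the 4 genes, 1 was called. Map1a was higher with FMRP by 4.79 on the log2 scale (SE 0.74, adjusted p = 1.99e-05) and stood 45th of the 953 genes by fold change. It passed the filter through its FMRP libraries, where it is high. With no filter on low counts, over 9709 genes, Map1a was higher by 4.56 (edgeR adjusted p = 6.03e-06). Map1b (log2 difference 1.64, SE 0.78, adjusted p = 0.0696), Map2 (0.74, SE 0.60, adjusted p = 0.285) and tau (-0.29, SE 0.66, adjusted p = 0.717) did not pass. The calls rest on 2 libraries a protein. Without the FMRP library at P11 no gene was called over the whole table (404 at an unadjusted p under 0.05), and Map1a kept a difference of 4.96 with an adjusted p of 0.194. Map1b passed without the FMRP library at P13 (2.02, adjusted p = 0.0146) and when each start position was counted once (1.503, adjusted p = 0.0282). The 454 libraries were then added and platform fitted as a term, over 220 genes. All 454 libraries are of FMRP, so the platform term takes them up. The fitted difference still rests on the Illumina libraries, with scaling over fewer genes. Map1a was higher by 3.09 (edgeR, adjusted p = 4.18e-05), and Map1b (-0.08, edgeR adjusted p = 0.896) and Map2 (-0.99, edgeR adjusted p = 0.133) did not pass. Each value was lower than in the main fit. The change of sign for Map1b and Map2 is therefore no finding from their 454 tags.

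Map2 depended on which tag list was used. Counted on the authors' transcript lists, Map2 had 23 and 35 FMRP lines, against 57 and 131 Hu lines, and a log2 difference of -1.33 (edgeR, adjusted p = 0.0779), the opposite sign to the genomic count. On the listed Map2 transcript the FMRP Illumina lines had their median at position 1725 and the Hu lines at position 3541, and no line lay beyond position 5535, whereas the gene table gives Map2 12664 nt. Of 151 FMRP Illumina tags in the 5000 nt of genome where they were densest (chr1:66459040-66464039), 0 had a line on that transcript, so the transcript lists do not count them. For Map1a both lists gave a like result, with 158 and 264 FMRP lines against 12 and 9 Hu lines. Map1b is not in the transcript lists.

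The next question was where along each gene the tags fell. FMRP tags on Map1a, Map1b and Map2 lay over the body of the gene, and Hu tags on the same genes lay close to the 3′ end. On Map1a, 27 of 581 tags of the 7 FMRP libraries (4.65%, 95% Wilson interval 3.21 to 6.68%) fell in the last 3000 nt, against 17 of 18 Hu tags (94.4%, 74.2 to 99.0%). On Map1b the shares were 71 of 802 FMRP tags (8.85%, 7.08 to 11.02%) and 290 of 330 Hu tags (87.9%, 83.9 to 91.0%). Since Map1b has no listed bounds, its 3′ end was taken here and below as its 3′-most tag in these same libraries. On Map2 they were 15 of 254 FMRP tags (5.91%, 3.61 to 9.51%) and 151 of 189 Hu tags (79.9%, 73.6 to 85.0%). Over all genes the same share was 26.1% of FMRP tags and 62.3% of Hu tags. A short gene can lie wholly in its last 3000 nt, and the genes were not matched in length to these long ones.

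The split held in every library with tags. On Map1b it was 0 to 13.3% in the 7 FMRP libraries, against 90.3 and 86.4% in the Hu libraries at P11 and P13, and on Map1a 0 to 9.68% against 88.9 and 100%. On Map2 it was 0% in each of the 5 FMRP libraries of 454, where the counts were 1 to 15 tags, and 1.12 and 11.2% in those of Illumina, against 82.8 and 78.6% in the Hu libraries. The FMRP library at P13 had the highest share over all genes too, 30.7%, while the other 6 FMRP libraries had 20.6 to 23.0%. Tau had 6 of 20 FMRP tags (interval 14.5 to 51.9%) and 13 of 19 Hu tags (68.4%, 46.0 to 84.6%) in that stretch, and these intervals overlap. With 2 libraries against 2, an exact permutation test of such a share cannot give a two-sided p below 0.333, so none was run.

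**Figure D2:**
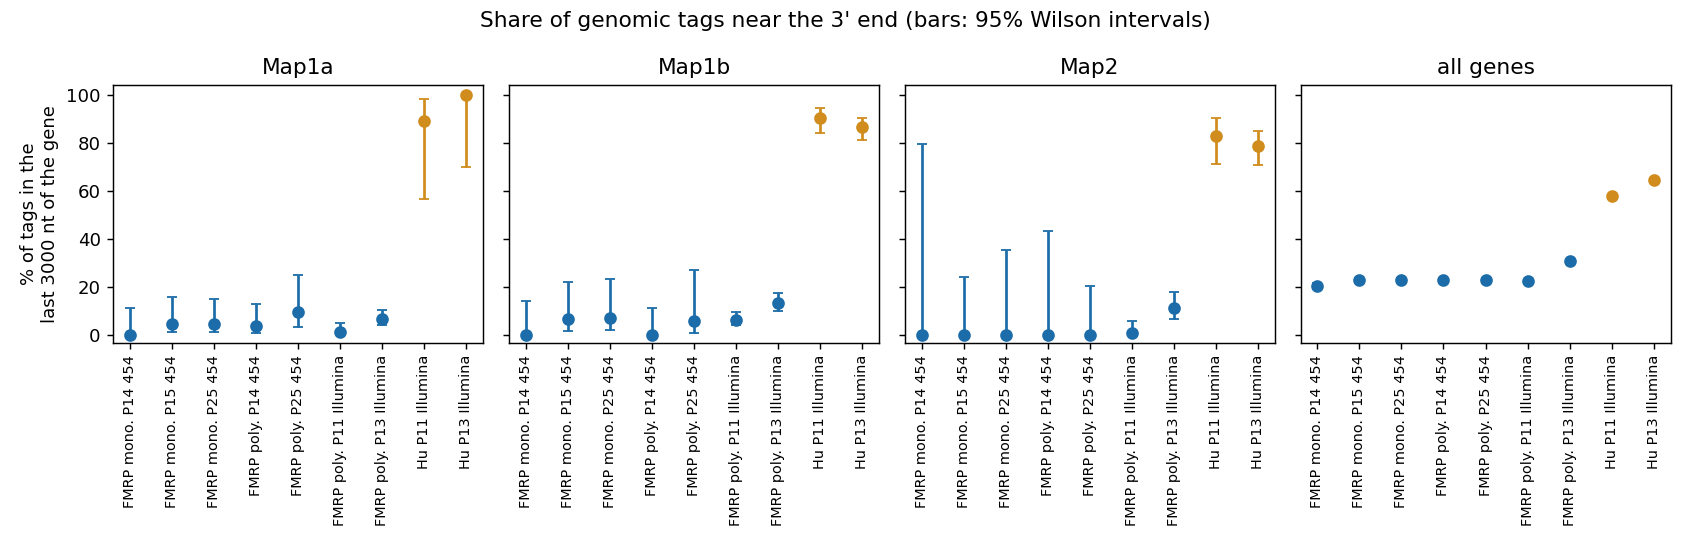
Percent of genomic tags in the last 3000 nt of Map1a, Map1b, Map2 and of all genes, for each library, with the 7 FMRP libraries (blue) left of the 2 Hu libraries (orange). Bars are 95% Wilson intervals. The 3′ end of Map1b is its 3′-most tag. FMRP libraries stay at 13.3% or less on the 3 genes, against 78.6% or more in the Hu libraries.

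The difference between the gene body and the 3′ end was tested with edgeR on tags outside and in the last 3000 nt of 1889 genes, with library as a block. The log2 ratio of FMRP to Hu was greater outside than inside by 8.33 for Map1a, a fitted value over 1 and 0 Hu tags that is no bound (SE 1.48, adjusted p = 4.57e-06), by 6.16 for Map1b (SE 1.05, adjusted p = 3.40e-06) and by 6.00 for Map2 (SE 1.05, adjusted p = 3.91e-06). Of the 4 genes 3 passed in this direction, as did 8.73% of all genes tested (8.84% in either direction and 0.106% the other way). The split at 3000 nt was chosen after the data were seen, and the 3 include Map1a with its 1 and 0 Hu tags. The count of 3 is therefore a description. The median over all genes was 2.27, and Map1a, Map1b and Map2 stood 19th, 131st and 146th. Tau had a difference of 1.86 (SE 1.81, adjusted p = 0.576). Without the Hu library at P13, 0 genes passed over the whole table (edgeR, 187 at an unadjusted p under 0.05), and the 3 genes had differences of 6.20 to 7.42, each at an adjusted p of 0.149.

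Outside the last 3000 nt Map1b and Map2 both passed the test against Hu that they missed over the whole gene. Map1b had 329 and 281 FMRP tags there, against 12 and 28 Hu tags, and was higher with FMRP by 3.58 on the log2 scale (SE 0.86, edgeR adjusted p = 0.00285). Map2 had 88 and 111 FMRP tags, against 10 and 28 Hu tags, and was higher by 1.98 (SE 0.60, edgeR adjusted p = 0.0110). The split was chosen after the data were seen, and it left out 290 of 330 Hu tags on Map1b and 151 of 189 on Map2. A rise of FMRP over Hu follows from leaving these out, so both calls are descriptions. Map1a had 139 and 226 FMRP tags outside the last 3000 nt, against 1 and 0 Hu tags. Its ratio was 189 at P11 (exact counting interval 33.3 to 7498) and at least 109-fold higher with FMRP at P13, computed against 3 counts in that Hu library. Map1a passed the filter through its FMRP libraries alone, so its call there is not counted. In this stretch 38.9% of 473 genes were higher with FMRP, and tau did not pass the filter.

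In the last 3000 nt the lysate ratios of Map1b and Map2 were below 1. Map1b had 23 and 43 FMRP tags, against 112 and 178 Hu tags, with ratios of 0.278 (0.170 to 0.439) at P11 and 0.350 (0.245 to 0.491) at P13. Map2 had 1 and 14 FMRP tags, against 48 and 103 Hu tags, with ratios of 0.0283 (0.000701 to 0.165) and 0.197 (0.104 to 0.346). Relative to the other genes in that stretch, however, neither passed the edgeR test (Map1b 0.03, adjusted p = 0.992, and Map2 -1.40, adjusted p = 0.347), while 20.5% of 278 genes were higher with FMRP and 1.44% lower. Map1a had 2 and 16 FMRP tags, against 8 and 9 Hu tags there, and its ratios of 0.339 (0.0351 to 1.70) and 2.58 (1.07 to 6.62) did not share a direction.

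**Figure D3:**
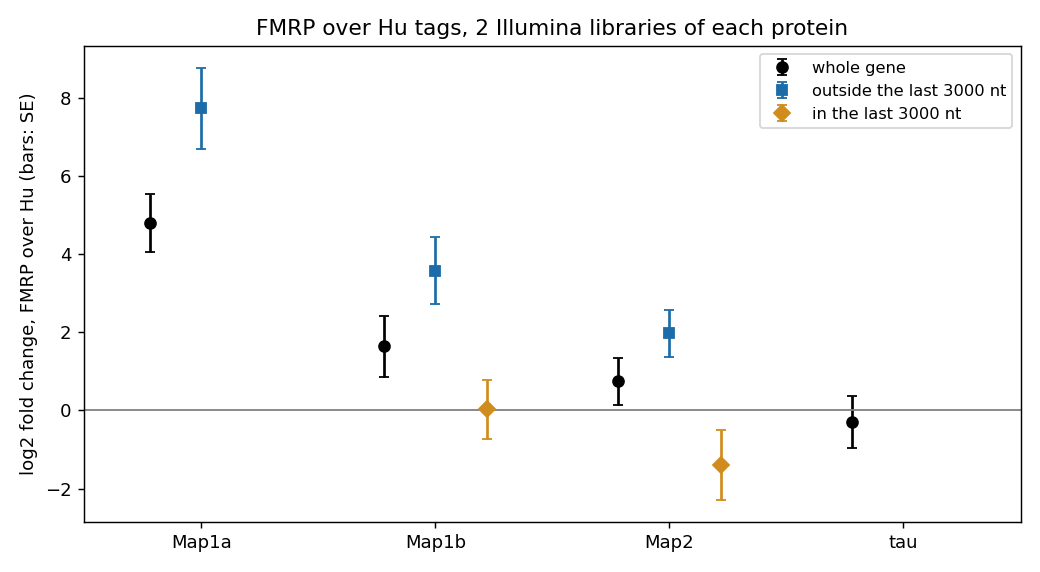
Log2 fold change of FMRP over Hu in the 4 Illumina libraries for each gene, over the whole gene, outside its last 3000 nt and in its last 3000 nt. Points are edgeR estimates and bars their SE, and a missing point did not pass the filter. The Map1a estimate outside the last 3000 nt rests on 1 and 0 Hu tags and is no bound. Map1b stands at 1.64 over the whole gene, 3.58 outside the last 3000 nt and 0.03 inside it. Each stretch is a separate fit, scaled over the genes tested in it, so 0 does not mean the same tag ratio in each. Inside the last 3000 nt the ratios of FMRP to Hu tags on Map1b, scaled to genomic tags, were 0.278 at P11 and 0.350 at P13.

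Within the body, FMRP tags were spread rather than piled up. The densest 100 nt held 23 of 581 FMRP tags on Map1a (3.96%), 22 of 802 on Map1b (2.74%) and 14 of 254 on Map2 (5.51%). Hu tags were more concentrated. The densest 100 nt of Map1b, at chr13:100193929-100194028, held 95 of 330 Hu tags (28.8%, 24.2 to 33.9%), with 33 distinct starts, at a median of 2454 nt from the 3′ end. On Map2 the densest 100 nt for Hu, at chr1:66487210-66487309, held 37 of 189 tags (19.6%, 14.5 to 25.8%), 1918 nt from the end, and on Map1a 7 of 18 (38.9%, 20.3 to 61.4%), 1974 nt from the end. The densest Hu window of tau held 4 of 19 tags. A densest window is chosen for its count, and its share is larger where tags are few, so these shares are descriptions.

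Few Hu tags lay where FMRP tags were densest, while more of the FMRP tags lay where Hu tags were densest. In the 5000 nt with most FMRP Illumina tags on Map1b (chr13:100199497-100204496) lay 432 of 676 FMRP tags, against 11 of 330 Hu tags (3.33%, 1.87 to 5.87%). The 454 libraries, which had no part in choosing that stretch, had 66 of 126 FMRP tags there (52.4%, 43.7 to 60.9%). On Map2 the corresponding stretch held 151 of 214 FMRP Illumina tags and 20 of 40 FMRP tags of 454, against 2 of 189 Hu tags (1.06%, 0.291 to 3.78%). On Map1a the stretch at chr2:121125776-121130775 held 247 of 383 FMRP Illumina tags and 102 of 198 FMRP tags of 454, against 0 of 18 Hu tags, which allows a share of up to 17.6%. The 5000 nt with most Hu tags on each gene held 134 of 581 tags of the 7 FMRP libraries on Map1a (23.1%) and 136 of 802 on Map1b (17.0%), against 18 of 18 and 313 of 330 Hu tags. On Map2 they held 27 of 214 FMRP Illumina tags (12.6%) and 0 of 40 FMRP tags of 454, against 170 of 189 Hu tags. These stretches were chosen on the same Hu tags, with no Hu library left aside, so their Hu shares are high by choice and are descriptions. At the other end of Map1b, a window of 1000 nt was placed at the 5′-most tag of its main stretch (chr13:100191495-100286492). This window had 8 FMRP tags in the 5 libraries of 454, 0 and 1 in the FMRP Illumina libraries at P11 and P13, and 0 and 0 in the Hu libraries. It holds a tag by its placing and is not an annotated transcript start, so these counts are descriptions.

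**Figure D4:**
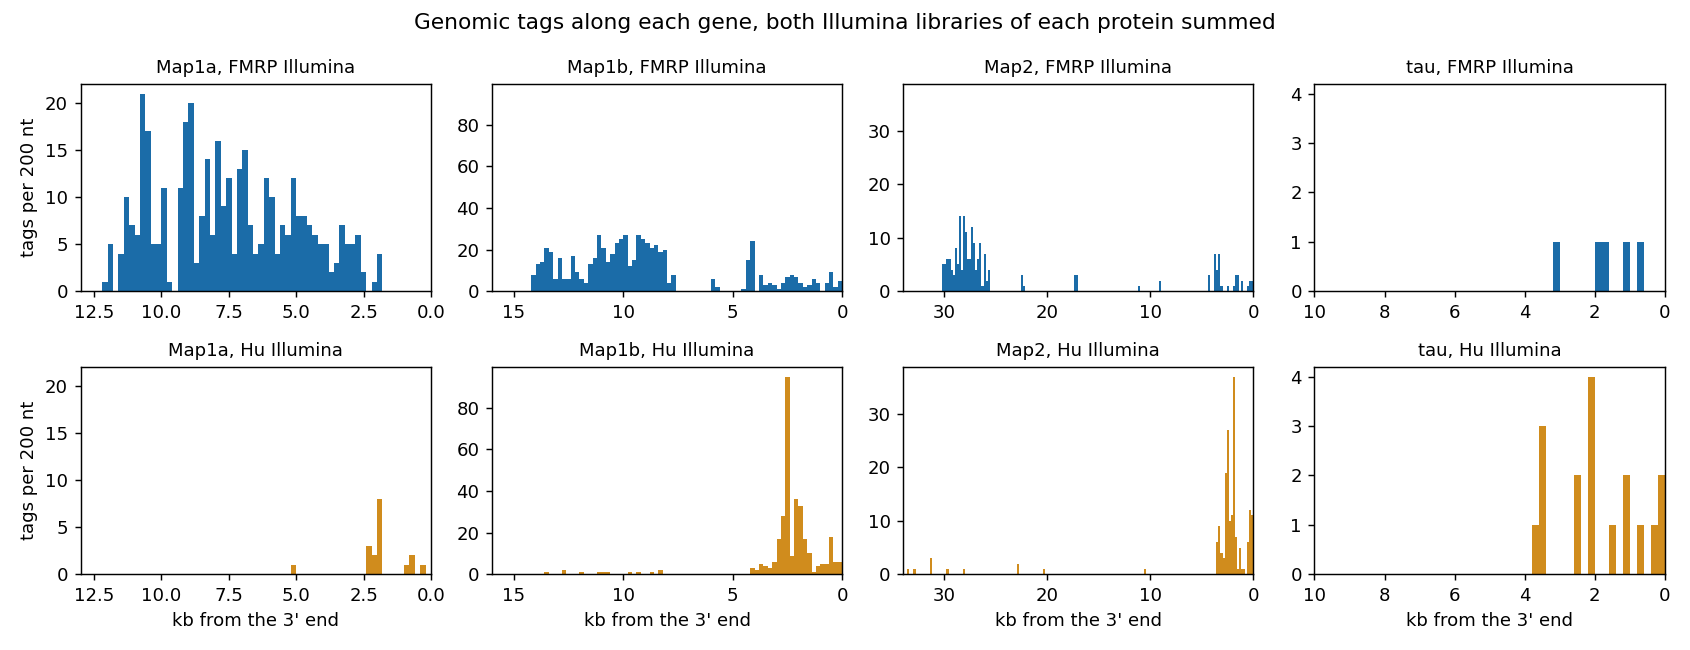
Genomic tags per 200 nt by distance from the 3′ end, with both FMRP Illumina libraries summed above and both Hu Illumina libraries summed below. The 3′ end of Map1b is its 3′-most tag. FMRP tags on Map1b lie mostly 8 to 13 kb from the end, and Hu tags in the last 3 kb. Over all 9 libraries 6 Map1a, 46 Map1b, 27 Map2 and 14 tau tags lie beyond the plotted ranges.

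The authors' coding counts gave a second view of position for FMRP, for which Hu has no column. Of the FMRP tags in the 7 libraries, 561 of 576 on Map1a (97.4%), 676 of 797 on Map1b (84.8%) and 213 of 249 on Map2 (85.5%) were coding. These compare with 76.0, 56.8 and 44.6% of the transcript's length. The coding share was above the share of length in 7 of 7 libraries for each of the 3 genes. It averaged 97.2% ± 2.55 for Map1a, 88.6% ± 8.41 for Map1b and 90.4% ± 11.4 for Map2 (SD, n = 7 each), and the lowest single values were 93.5%, 76.9% and 75.0%.

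Tags per kb were denser in coding than in untranslated sequence by 3.56 on the log2 scale for Map1a (SE 0.42, edgeR adjusted p = 7.46e-15), by 3.43 for Map2 (SE 0.53, adjusted p = 3.97e-09) and by 2.41 for Map1b (SE 0.33, adjusted p = 4.55e-11). Each of the 3 genes tested passed, as did 57.3% of the 1163 genes tested, whose median was 2.03, and 0.516% passed the other way. Coding density is therefore common in these libraries, and Map1a stood 154th, Map2 169th and Map1b 455th by its size. Tau had 14 FMRP tags in the gene table, of which 6 were coding, and did not reach the minimum of 20 tags. At a minimum of 10 tags its difference was 0.85 (SE 1.05, edgeR adjusted p = 0.524).

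**Figure D5:**
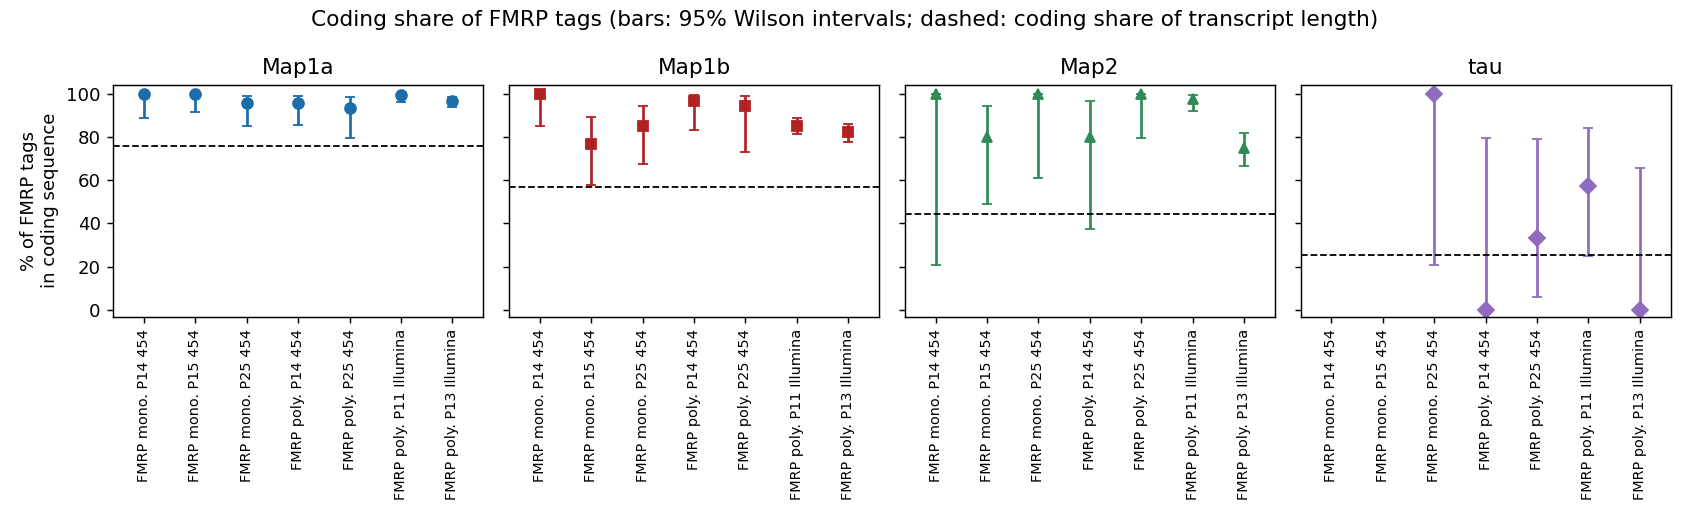
Percent of FMRP tags in coding sequence for each gene and FMRP library, with 95% Wilson intervals, and the coding share of the transcript's length as a dashed line. Map1a, Map1b and Map2 lie above their line in 7 of 7 libraries, while tau has a tag in 5 libraries and lies above its line in 3.

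Antibody and age were compared among the 5 libraries of Protocol 1, where tags are few. With monoclonal against polyclonal antibodies, 0 of 96 genes (0%) passed with edgeR or with DESeq2 (3 and 0 at an unadjusted p under 0.05). Map1a averaged 494 ± 61.6 CPM per kb with monoclonal antibodies (SD, n = 3) and 499 ± 78.9 with the polyclonal antibody (SD, n = 2), and its log2 difference was -0.13 (SE 0.34, edgeR adjusted p = 0.991). Map1b averaged 297 ± 68.5 with monoclonal antibodies (SD, n = 3) and 276 ± 76.5 with the polyclonal antibody (SD, n = 2), with a log2 difference of -0.03 (SE 0.34, edgeR adjusted p = 0.991). The means are scaled to table totals and the log2 differences to TMM sizes of the genes tested, so small differences can differ in sign between them, as for Map1b here. At P25 against P14 and P15, 0 of 96 genes (0%) passed with either tool (5 and 0 at an unadjusted p under 0.05). The log2 difference was -0.15 for Map1a (SE 0.31, edgeR adjusted p = 0.844) and -0.33 for Map1b (SE 0.31, edgeR adjusted p = 0.770). Map2 and tau did not pass the filter on low counts in either comparison. These tests do not show that the groups were alike, since an SE near 0.3 leaves room for moderate differences.

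Protocol 2 was set against Protocol 1 among the 4 libraries with the polyclonal antibody, where dissociation, platform and age change together and cannot be told apart. Map1b was higher with Protocol 2. It averaged 812 ± 346 CPM per kb with Protocol 2 and 276 ± 76.5 with Protocol 1 (SD, n = 2 each), a log2 difference of 1.75 (SE 0.48, edgeR adjusted p = 0.0459). Map2 averaged 249 ± 33.8 with Protocol 2 and 129 ± 102.6 with Protocol 1, and did not pass (1.17, SE 0.54, edgeR adjusted p = 0.195). Map1a averaged 466 ± 1.49 with Protocol 2 and 499 ± 78.9 with Protocol 1 (0.09, SE 0.41, edgeR adjusted p = 0.929), again with means and log2 difference of opposite sign. Of the 3 genes tested 1 was higher, as were 4.19% of 334 genes tested (8.38% in either direction). The call for Map1b was lost with DESeq2 (1.75, adjusted p = 0.217), without the Protocol 2 library at P13 (2.16, edgeR adjusted p = 0.0518), and without the Protocol 1 library at P14 (2.16, edgeR adjusted p = 0.379) or at P25 (1.63, edgeR adjusted p = 0.515). Map2 was called without the Protocol 2 library at P11 (1.18, edgeR adjusted p = 0.0129).

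Other microtubule-associated and microtubule-regulating mRNAs were set against the same comparison. Of 19 listed genes 7 could be tested, and 0 were higher and 5 lower with FMRP (edgeR), where 31.8% of all genes tested were higher and 25.2% lower. The median log2 difference of the 7 was -1.95, beside 0.01 over all genes. Lower calls over the whole table numbered 240 with edgeR, 76 with DESeq2 and 72 with no filter on low counts. Dcx, Map7 and Stmn3 had so few FMRP tags that they passed the filter through the Hu libraries, where they are high. Stmn3 had 5 and 3 FMRP tags against 12 and 24 Hu tags. Dpysl2, with 7 FMRP tags at P11, would not have passed through its FMRP libraries alone. The count of 5 lower is therefore a description, not a result about the list. Dcx, which encodes a protein of migrating neurons, had 3 and 1 FMRP tags against 30 and 18 Hu tags (-3.17, adjusted p = 0.00316, edgeR). Map7, listed as Mtap7 and known for kinesin recruitment, had 2 and 4 FMRP tags against 13 and 38 Hu tags (-2.53, adjusted p = 0.00479, edgeR). Dpysl2, which encodes the tubulin-binding protein CRMP2, had 7 and 48 FMRP tags against 88 and 195 Hu tags (-2.05, adjusted p = 0.00744, edgeR). Dclk1, a doublecortin-like kinase, had 11 and 45 FMRP tags against 84 and 199 Hu tags (-1.95, adjusted p = 0.00816, edgeR).

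The kinases, phosphatase subunits and scaffolds that act on these proteins were mixed. Of 19 listed genes 7 were tested, and 1 was higher and 1 lower with FMRP (edgeR), beside 31.8% and 25.2% of all genes tested, with a median of -0.25. Mapk8ip1, the JNK scaffold JIP1, had 18 and 30 FMRP tags against 1 and 0 Hu tags (edgeR adjusted p = 3.95e-05). It passed the filter through the FMRP libraries, and with Hu near 0 no fold is given. Gsk3b, a kinase that phosphorylates tau and MAP1B, had 13 and 28 FMRP tags against 49 and 99 Hu tags (-1.39, adjusted p = 0.0344, edgeR). The 5 LC3 and GABARAP genes, whose products bind MAP1 light chains or autophagosomes, had 0 to 8 tags a library with FMRP, against 13 and 43 with Hu, and none passed the filter. In coding density 5 of 8 other microtubule-associated genes and 5 of 9 kinase and phosphatase genes passed in the coding direction (edgeR), near the 57.3% of all genes tested, with medians of 1.80 and 2.22 beside 2.03 over all genes. Outside over in the last 3000 nt, 2 of 10 other microtubule-associated genes passed toward FMRP in the gene body, Camsap1l1 (edgeR adjusted p = 0.000720) and Dpysl2 (4.17, edgeR adjusted p = 0.00715), and 0 of 12 kinase and phosphatase genes did, beside 8.73% of all genes tested.

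Likeness of pattern was measured by Pearson's r of log2(CPM + 10) over the 9 libraries, among 837 other genes with 50 or more genomic tags. The genes most like Map1a were Htt (r = 0.993), Abca2 (r = 0.992) and Mapk8ip1 (r = 0.989). Those most like Map1b were Ank2 (r = 0.888), Nbea (r = 0.869) and Trip12 (r = 0.848), and those most like Map2 were Ogt (r = 0.905), Vps13c (r = 0.893) and Rfx3 (r = 0.880). The 9 points share libraries, antibodies and platforms, so these values are descriptions. Tau had too few tags to be ranked.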

How the data were processed

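Polyribosomal RNA bound by FMRP (7 libraries) or by Hu proteins (2 libraries) was sequenced as HITS-CLIP tags. The submitters' processing notes name Novoalign and the mm9 build, with no version. The deposited gene table holds the authors' FMRP tag counts for each gene's transcript and for its coding part, besides an exon array intensity. In the deposited Illumina tag lists the value beside each tag is a score of no stated meaning and was not used. In the deposited 454 lists that value holds counts of merged reads, going by the values. Each line was taken as 1 tag.

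Genomic tags were assigned by their midpoint to the genes of the table, on the gene's strand, and 560 tags inside more than 1 gene were left out, none of them on the 4 genes. Strand came from RefSeq (the GRCm38.p6 table of promoters, used for strand alone) or from reads that also lie sense on a transcript. Map1b has no mm9 bounds in the table, so tags on its strand between its listed neighbours Mrps27 and Cartpt were counted. Its 3′ end was set at its 3′-most tag in the 9 libraries, while the ends of the other genes came from their listed bounds. Lines of the table without a gene identifier hold 0.248% of its tags and count towards the library totals of the levels alone.

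Tests were made with edgeR 4.0.16 (quasi-likelihood, TMM, filterByExpr, Benjamini-Hochberg adjustment at 0.05 over all genes tested) in R 4.3.3, two-sided, with DESeq2 1.42.0 as an alternative. Coding density was tested on coding and untranslated tags per library, with library as a term. Library total and length were an offset in place of TMM. Genes with 20 tags or more and at least 100 nt of each compartment were tested, in place of filterByExpr. The split at 3000 nt from the 3′ end, and the test on it, were added after the data were seen. The test of tags outside against inside that stretch used library totals in place of TMM. It took genes with 20 tags or more in the Illumina libraries, in place of filterByExpr. Scripts were tested on simulated data. The P11 and P13 lysates pair the FMRP and Hu libraries, per the series text, and the deviations of the P11 libraries from the means of their proteins correlated at 0.23 across 953 genes. The 4 genes and the gene lists were chosen with earlier results of these data known. Besides the 4 genes, the text names up to 4 genes a list, comparison and direction by largest fold change, and the 3 genes most like each member. Stmn3 is named as well, for how it passed the filter. Libraries are pools of mice of different ages, so a p-value here covers no more than how these libraries vary. Wilson intervals at 95% and floors of 3 counts cover counting error only, and PCR copies cannot be told from separate molecules beyond the authors' merging. The test of the oligodendrocyte markers is not reported here. Other software was Python 3.11.15, pandas 2.3.3, numpy 2.4.6, scipy 1.17.1 and matplotlib 3.10.9.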

Additional observations from a re-analysis of the deposited data

Results flagged for a closer look

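One FMRP library stood apart from the other 6 on Map1b. At P11, with the polyclonal antibody and Protocol 2, Map1b had 1056 CPM per kb in the gene table, and the next highest library had 567. The gap was 0.586 of the whole range, above Dixon's 95% critical value for 7 samples, and chance flags about 1 in 20 groups. Scaled to genomic tags, the gap was 0.512 of the range and did not pass. Tags on the strand opposite Map1b numbered 4 in the Hu library at P13, one more than the limit that a count of 0 allows, 2 in that at P11, and 0 or 1 in each FMRP library, against 206 tags on the Map1b strand in that Hu library.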

How the results depend on the processing

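The count of genes called between FMRP and Hu was 543. It was 293 with DESeq2, 307 with no filter on low counts, and 129 of 220 genes with the 7 FMRP libraries and a platform term, where Map1a, Map1b and Map2 stood at 3.09, -0.08 and -0.99 on the log2 scale. In that fit the platform term takes up the 454 libraries, so the differences rest on the Illumina libraries, scaled over fewer genes. The count was 326 outside the last 3000 nt of each gene and 61 inside it. Leaving out 1 library gave 0 to 472 calls. With the lysate as a replicate block the count was 544, and no call on the 4 genes changed. With library totals in place of TMM the median over all genes moved to -0.29. Outside against inside the last 3000 nt, 167 genes were called, and 0 to 127 with 1 library left out. Between protocols 28 genes were called, 0 with DESeq2 and 0 to 20 with 1 library left out. Age called 0 genes, and 1 where library size was summed over all genes. Coding density called 672 genes, 220 with Protocol 1 libraries alone and 431 to 620 with 1 library left out, and Map1a, Map1b and Map2 passed in each of these. The mean level of Map1a was 310.2 CPM per kb from genomic tags and 304.7 with gene table counts scaled to genomic tags. The settings on library size and on the last 3000 nt were chosen after seeing the data. Tau, with 0 to 10 tags a library, is limited by depth throughout, as is Map2 on 454.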
